A study of Mus musculus with 9 samples.

Results

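Transcripts of the glucose transporter gene *Slc2a1* and of 9 genes of the glycolytic chain, *Hk2*, *Pfkl*, *Aldoa*, *Tpi1*, *Gapdh*, *Pgk1*, *Eno1*, *Pkm* and *Ldha*, were followed by scRNA-seq in stromal cells of the mouse knee, at steady state and 6 days after joint surface injury. The members were found by their gene symbols, 10 of the 54534 genes listed. *Aldoa* stands for 2 gene identifiers, ENSMUSG00000030695 with 51071 UMIs (unique molecular identifiers, each standing for 1 captured transcript) in stromal cells and ENSMUSG00000114515 with 30. The levels given add both, whereas the tests and the counts of libraries used the former alone. The other members had 1 identifier each. In GRCm38 with its GENCODE annotation all are protein-coding: *Slc2a1* at chr4:119108711-119137983 and *Eno1* at chr4:150236721-150248879, *Hk2* at chr6:82725025-82774454, *Tpi1* at chr6:124810586-124814296 and *Gapdh* at chr6:125161715-125166467. *Ldha* lies at chr7:46841475-46855627, *Aldoa* at chr7:126795234-126800751, *Pkm* at chr9:59656368-59679375, *Pfkl* at chr10:77986947-78010083 and *Pgk1* at chrX:106187100-106203699.

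All 9 libraries came from *Gdf5-Cre;Tom;Pdgfrα-H2BGFP* mice labelled 11 to 12 weeks old. In these mice Cre under *Gdf5* control switches on the red reporter Tom in the descendants of cells that once expressed *Gdf5*, a gene of the embryonic joint interzone, and a nuclear GFP reports *Pdgfra*, a gene widely used to mark fibroblasts. Collagenase-digested joints were sorted into live Tom+ cells, the *Gdf5* lineage, and Tom-GFP+ cells, the *Pdgfra*-expressing cells outside it. The groups were Tom+ steady state (2 libraries), Tom-GFP+ steady state (1 library), Tom+ injured (4 libraries) and Tom-GFP+ injured (2 libraries). Injured mice had their right knee opened beside the patella and the cartilage of the trochlear groove scratched through its full thickness, and no group with the joint opened alone was analysed here, so that the opening and the scratch cannot be told apart. The study counted as many mice as libraries in each group and called the Tom-GFP+ mice matched, but the labels do not tie a library to a mouse, and p-values measure the spread between these libraries.

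Glycolysis splits glucose into pyruvate in the cytosol and yields ATP without oxygen. Glut1, encoded by *Slc2a1*, lets glucose into the cell, hexokinase (*Hk2*) traps it as a phosphate, phosphofructokinase (*Pfkl* encodes the liver-type subunit) commits it to the pathway, aldolase (*Aldoa*) and triosephosphate isomerase (*Tpi1*) split and interconvert the sugar phosphates, and *Gapdh*, *Pgk1*, *Eno1* and *Pkm* encode the enzymes that turn triose phosphates into pyruvate. Lactate dehydrogenase A (*Ldha*) reduces pyruvate to lactate and so regenerates NAD+ for the *Gapdh* step. Many of these genes are known targets of hypoxia-inducible factor 1 and of Myc, and the pathway is known to be raised in activated and proliferating fibroblasts.

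The known hypoxia response element has the core ACGTG or GCGTG, and the E-box CACGTG is the known Myc site and holds ACGTG on both strands. In RefSeq promoters of GRCm38.p6, taken as the 250 bases before each start and read on both strands, 38.6% of 32851 held ACGTG or GCGTG (16.6% ACGTG, 28.2% GCGTG) and 6.02% held CACGTG. Of the 16 starts given for the members, 13 held ACGTG or GCGTG, in 9 of 10 members (all but *Tpi1*), and CACGTG was present at 1 start, that of *Ldha*. Some starts of *Aldoa* and of *Eno1* have overlapping windows that share their matches. A member was counted if any of its starts held a match. Promoters of 3 members whose injured libraries all lay above the steady-state ones, and of *Hk2*, for which they did not, are shown 5′ to 3′ on the strand of the gene, with ACGTG and GCGTG of either strand in capitals:
Ldha, chr7:46845554-46845803, + strand: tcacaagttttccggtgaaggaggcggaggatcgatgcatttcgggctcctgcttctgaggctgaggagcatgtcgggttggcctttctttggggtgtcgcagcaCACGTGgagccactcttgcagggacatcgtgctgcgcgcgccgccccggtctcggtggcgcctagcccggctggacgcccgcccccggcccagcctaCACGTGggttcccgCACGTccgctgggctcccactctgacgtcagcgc
Gapdh, chr6:125165774-125166023, - strand: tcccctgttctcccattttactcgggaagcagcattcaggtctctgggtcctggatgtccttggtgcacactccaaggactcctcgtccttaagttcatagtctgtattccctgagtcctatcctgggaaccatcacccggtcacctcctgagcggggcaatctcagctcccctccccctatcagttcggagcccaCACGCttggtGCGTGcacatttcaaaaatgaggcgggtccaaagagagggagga
Pgk1, chrX:106186850-106187099, + strand: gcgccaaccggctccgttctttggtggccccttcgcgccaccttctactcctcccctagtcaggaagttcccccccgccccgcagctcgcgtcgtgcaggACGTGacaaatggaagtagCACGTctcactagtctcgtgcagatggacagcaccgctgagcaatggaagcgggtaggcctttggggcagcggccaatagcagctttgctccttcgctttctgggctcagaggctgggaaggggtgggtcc
Hk2, chr6:82774455-82774704, - strand: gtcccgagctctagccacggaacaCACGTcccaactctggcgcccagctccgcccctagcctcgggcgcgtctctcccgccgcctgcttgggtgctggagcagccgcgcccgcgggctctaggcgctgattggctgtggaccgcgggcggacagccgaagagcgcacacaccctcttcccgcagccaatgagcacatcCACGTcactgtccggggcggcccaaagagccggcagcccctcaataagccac
The *Ldha* window held 5 matches to ACGTG and none to GCGTG, with the 2 copies of CACGTG starting 145 and 48 bases before the start. The *Pgk1* window held 2 ACGTG matches, at 150 and 131 bases, the *Hk2* window 2, at 226 and 52 bases, and the *Gapdh* window 2 GCGTG matches, at 54 and 44 bases. These are letter matches in the reference and no occupancy was measured.

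The 9 libraries held 5161 barcodes in all and between 2866464 and 15033902 UMIs each, and 14 barcodes occurred in more than 1 library. After filtering, 4788 cells were kept, of which 4673 were called stromal, 108 immune and 7 endothelial. Median UMIs per cell lay between 8050 and 8647 in the 3 steady-state libraries and between 12220 and 18570 in the 6 injured libraries, so depth moved with the state. The defining immune markers summed to between 2.32 and 40.5 CPM, counts scaled to the same total of UMIs per sum, in the stromal sums, and *Ptprc*, the pan-leukocyte gene, was at 0 in 7 of 9. Markers of other populations moved with single libraries or with the state. Adipocyte markers stood at 2693 CPM in Tom+ injured replicate 4 and between 38.3 and 369 elsewhere, and the summed dissociation stress genes at 7311 to 10850 CPM at steady state against 3097 to 7630 after injury. Cycling cells made up 0 to 0.184% of stromal cells at steady state and 1.13% to 17.6% after injury. The gene list also had 2 formats, the older in the 3 steady-state libraries and Tom+ injured replicate 1 and the newer in the other 5, so that format moved with state in all but 1 library. The part of depth, stress genes, cell kinds and format in the injury differences was not tested beyond the comparisons given below.

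Summed over the 10 genes, glycolysis transcripts made up 0.257% to 0.300% of stromal UMIs in the 3 steady-state libraries and 0.426% to 0.901% in the 6 injured libraries, and the 2 ranges did not overlap. In Tom+ cells *Gapdh* and *Ldha* rose after injury, 2.44-fold and 2.51-fold, so that 2 of 10 members were called higher against 6.36% of all genes tested. The fitted difference was above 0 for all 10 members, with a median of 1.21 on the log2 scale against 0.05 over all 14920 genes tested, but 8 of 10 missed the threshold (8 had an unadjusted p under 0.05, as did 32.1% of all genes, and DESeq2 called 7 higher, against 6.60% of all genes). The tests below, unless named otherwise, are edgeR's quasi-likelihood test on UMI counts summed per library, with Benjamini-Hochberg adjustment over all genes tested and a threshold of 0.05. Differences are log2 with the SE in parentheses, and levels are CPM. In sums over many cells, a change in the kinds of cell and a change of RNA within a cell cannot be told apart.

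*Ldha* stood at 434 and 476 CPM in the 2 Tom+ steady-state libraries and 362 CPM in Tom-GFP+ steady state, and at 1323, 954, 1248 and 841 CPM in Tom+ injured replicates 1 to 4. The means were 455 ± 29.2 (SD, n = 2) and 1092 ± 231 (SD, n = 4), and every injured library lay above every steady-state library. The difference in Tom+ cells was 1.33 (0.31), with an adjusted p of 0.0291. *Gapdh*, the glyceraldehyde-3-phosphate dehydrogenase gene often used as a reference for expression, stood at 840.2 and 885 CPM in Tom+ steady state and at 1919, 1804, 2618 and 1719 CPM after injury, with means of 862 ± 31.4 (SD, n = 2) and 2015 ± 410.2 (SD, n = 4). Its difference was 1.29 (0.33), with an adjusted p of 0.0379. With the UMIs of its near-identical copies added, *Gapdh* differed by 1.21 with an adjusted p of 0.0513, and *Ldha* by 1.29 with an adjusted p of 0.0312.

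**Figure D1:**
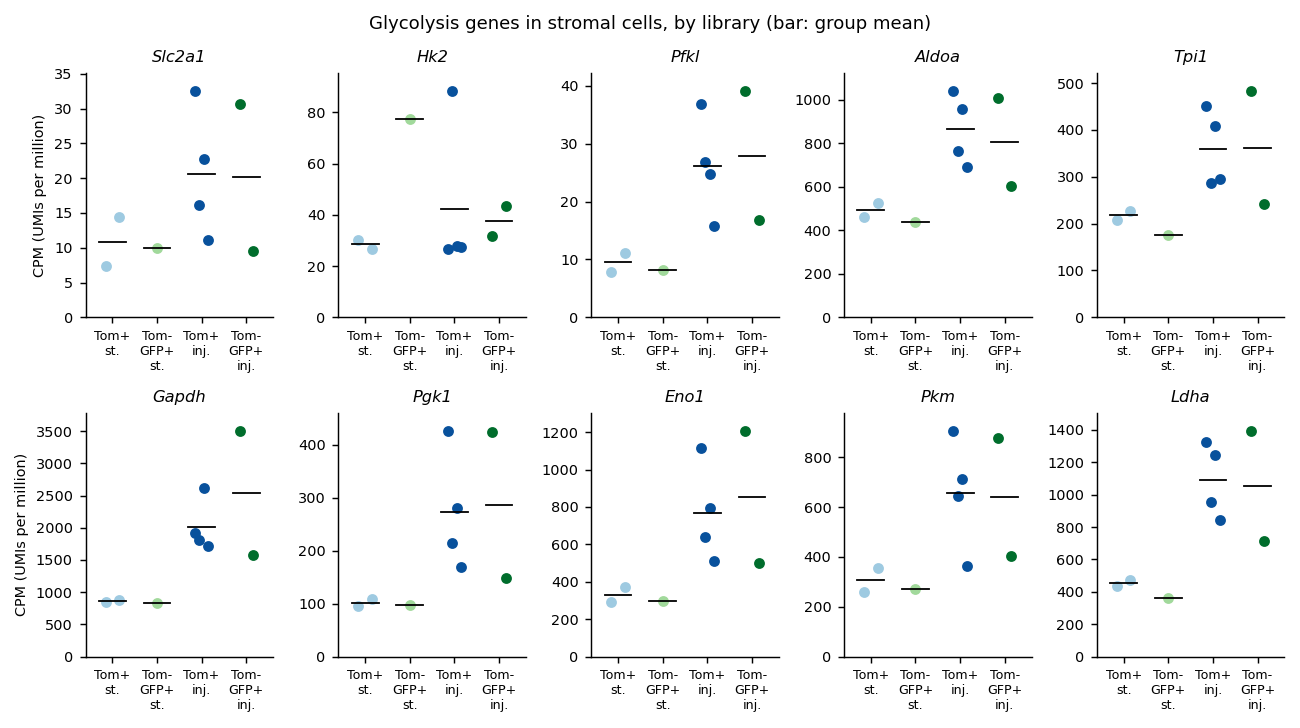
CPM of each glycolysis gene in the stromal cells of each library; 1 point per library, columns from left to right Tom+ steady state (st.), Tom-GFP+ steady state, Tom+ injured (inj.) and Tom-GFP+ injured, bars at the group means, y axes starting at 0. In 8 panels every injured library lies above every steady-state library, while *Hk2* is high in 1 Tom+ injured library and in Tom-GFP+ steady state.

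The later steps of the chain lay higher after injury without passing the test. *Pgk1*, the phosphoglycerate kinase gene of the first ATP-yielding step, stood at 95 and 109 CPM in Tom+ steady state and at 426, 215, 281 and 169 CPM in Tom+ injured (1.48 (0.48), adjusted p of 0.0745). *Eno1*, the enolase gene, stood at 289.6 and 371 CPM and after injury at 1118, 639, 796 and 511 CPM (1.28 (0.41), adjusted p of 0.0730). For both, replicate 1 was the highest and replicate 4 the lowest of the injured Tom+ libraries, yet neither overlapped the steady state. *Pkm*, the muscle-type pyruvate kinase gene, whose isoforms were not separated by these counts, stood at 261 and 357 CPM and at 907, 646, 711 and 362 CPM (1.15 (0.42), adjusted p of 0.0985), so that the lowest injured library lay just above the highest steady-state one.

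The upper steps differed more among themselves. *Pfkl* stood at 7.77 and 11.2 CPM at steady state and at 36.9, 26.8, 24.7 and 15.9 CPM after injury, a difference of 1.51 (0.44) with an adjusted p of 0.0563. *Aldoa* stood at 460.2 and 523 CPM and at 1038, 765, 958 and 689.9 CPM, 0.88 (0.26) with an adjusted p of 0.0570, and *Tpi1* at 208 and 227 CPM and at 451, 287, 409 and 294 CPM, 0.79 (0.31) with an adjusted p of 0.119. The injured and steady-state libraries did not overlap for any of these 3 genes. *Slc2a1* was detected at 7.42 and 14.4 CPM at steady state and at 32.5, 16.1, 22.8 and 11.1 CPM after injury, with overlapping groups, and differed by 0.96 (0.57; adjusted p of 0.283). *Hk2* was the member that stood apart, at 30.0 and 26.8 CPM at steady state and at 26.6, 88.2, 27.7 and 27.3 CPM after injury. Its difference of 0.65 (0.53), adjusted p of 0.432, rested on Tom+ injured replicate 2, without which it was -0.0044.

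In all, 8 of 10 members, those other than *Slc2a1* and *Hk2*, had every Tom+ injured library above both Tom+ steady-state libraries, against 20.9% of all genes tested. The injured libraries kept a common order across members. Tom+ injured replicate 1 was among the highest 2 of the 6 injured libraries for 8 members and Tom-GFP+ injured replicate 1 for 9, whereas Tom+ injured replicate 4 and Tom-GFP+ injured replicate 2 were among the lowest 2 for 9 members each. The former pair also had the largest shares of cycling cells (17.6% and 9.31% of stromal cells) and the latter pair the smallest among injured libraries (2.20% and 1.13%). Tom+ injured replicate 2 had 5.99% cycling cells, with the members at 0.544% of stromal UMIs, and replicate 3 had 4.68%, with the members at 0.71%. Mitochondrial genes held 2.255% of stromal UMIs in Tom-GFP+ injured replicate 1 and 2.305% in Tom+ injured replicate 1. They held 3.053%, 2.627% and 3.629% in Tom+ injured replicates 2, 3 and 4, and 3.408% in Tom-GFP+ injured replicate 2. The parts of cycling cells and of the mitochondrial share in this order were not tested. With cycling cells left out, *Pfkl* (1.48, adjusted p of 0.0417), *Aldoa* (0.87, 0.0432), *Gapdh* (1.20, 0.0296) and *Ldha* (1.26, 0.0208) rose in Tom+ cells after injury, 4 of 10 members against 7.34% of all genes.

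The 2 calls in Tom+ cells were sensitive to the libraries used. No member was called without Tom+ steady-state replicate 1 or 2, where 0.306% and 0.182% of all genes were called higher, or without Tom+ injured replicate 2 or 3, where 3.05% and 2.86% were. In contrast, 4 were called without Tom+ injured replicate 4 (4.94% of all genes) and 6 without Tom-GFP+ injured replicate 1 (6.29%) or replicate 2 (6.03%). Within the older format (3 steady-state libraries against Tom+ injured replicate 1), 9 members were called higher, all but *Hk2*, against 6.25% of all genes, among them *Pgk1* with a difference of 2.10 and an adjusted p of 0.0013 and *Eno1* with 1.80 and 0.0023. In that comparison 1 library stands for the injured state. The spread between libraries came from the 2 Tom+ steady-state libraries alone, so no call is given.

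**Figure D2:**
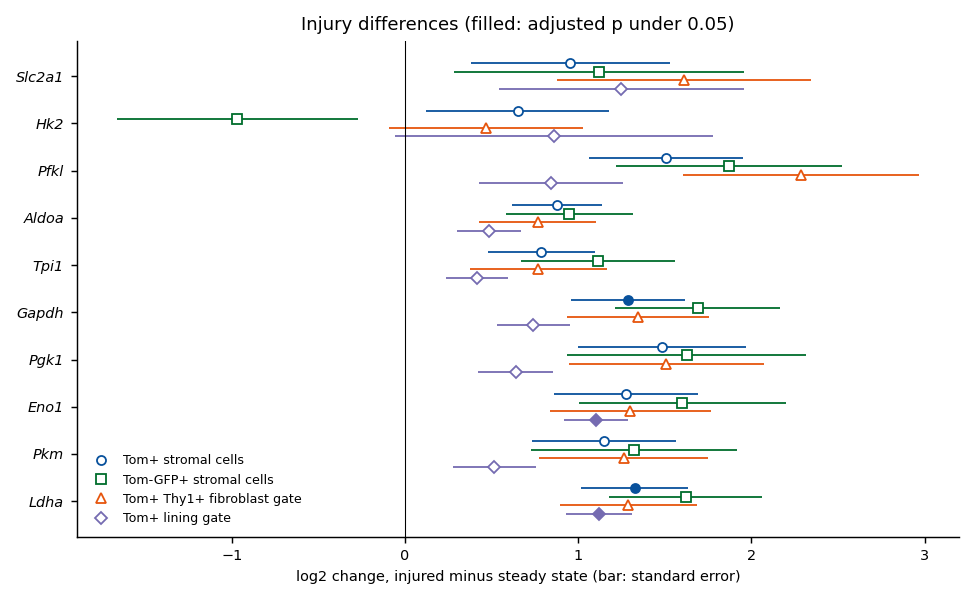
Difference between injured and steady state (log2, x axis) of each glycolysis gene (y axis) in 4 comparisons: Tom+ stromal cells, Tom-GFP+ stromal cells, the Thy1+ fibroblast gate and the lining gate of Tom+ cells. Bars are the SE and filled symbols have an adjusted p under 0.05, which holds for *Gapdh* and *Ldha* in Tom+ stromal cells and for *Eno1* and *Ldha* in the lining gate.

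In Tom-GFP+ cells the same comparison had 1 steady-state library on one side. *Ldha* stood at 362 CPM at steady state and at 1396 and 712 CPM after injury, *Gapdh* at 834 and at 3508 and 1584 CPM, *Eno1* at 298 and at 1208 and 503 CPM, and *Pgk1* at 98.1 and at 424 and 148 CPM. For 8 members, again all but *Slc2a1* and *Hk2*, both injured libraries lay above the steady-state library, against 37.4% of all genes. No member passed edgeR's test (0.912% of all genes did in either direction), 7 had an unadjusted p under 0.05 (23.1% of all genes) and DESeq2 called 2 higher (2.47% of all genes). The median difference was 1.46, but 0.65 without Tom-GFP+ injured replicate 1 and 1.91 without replicate 2. The lowest adjusted p values were those of *Ldha* (1.62 (0.44), 0.0924) and *Gapdh* (1.69 (0.48), 0.0965). *Hk2* stood at 77.3 CPM at steady state and at 31.8 and 43.4 CPM after injury, a difference of -0.97 (0.69) with an adjusted p of 0.435.

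No difference between the lineages was detected for any member. In the injured state 0 members passed between Tom+ and Tom-GFP+ cells (0.0268% of all genes did), 0 had an unadjusted p under 0.05 (6.44% of all genes) and DESeq2 called 0 (0.710% of all genes). The 95% interval of the difference ran from -0.49 to 0.65 for *Aldoa*, from -0.63 to 0.69 for *Ldha* and from -1.06 to 0.33 for *Gapdh*. The direction rested on single libraries, *Gapdh* lying at 0.33 without Tom-GFP+ injured replicate 1 and at -0.83 without replicate 2. In the steady state the counts over members were again 0 by all 3 (0.0134% of all genes passed, 5.80% had an unadjusted p under 0.05 and DESeq2 called 0.462%), with *Hk2* the farthest from 0 at -1.45 (95% interval -3.05 to 0.14). The injury difference itself was tested between the lineages, and 0 of 10 members and 0% of all genes passed. In that test 355 genes (2.38%) and 0 members had an unadjusted p under 0.05, and DESeq2 called 2 genes higher and 1 lower (0.0201%), none of them a member. For all 10 members the 95% interval of that difference reached beyond 1 on the log2 scale in at least one direction.

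Cell types were compared through gates, sets of cells that had enough UMIs of a fixed marker list. The Thy1+ fibroblast gate held 1995 cells. These had a UMI of *Thy1*, had at least 3 of *Thy1*, *Cd34*, *Pdgfra*, *Pi16*, *Dpp4* and *Ly6c1*, and passed no other cell type gate. Cycling and injury-induced cells, described below, were not taken out of it, and over all libraries it held *Mki67* at 13.98 and *Lrrc15* at 100.4 CPM. The lining gate, for fibroblast-like synoviocytes (FLS) that make the lubricating surface layer, rested on *Prg4*, *Clic5*, *Tspan15*, *Htra4*, *Itga6* and *Col22a1* and held 680 cells. Of the latter, Tom-GFP+ steady state gave 3 and was left out of the lining comparisons, while 20 and 24 were in the 2 Tom+ steady-state libraries.

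Within the Thy1+ fibroblast gate of Tom+ cells the median injury difference over the members was 1.296, against -0.0017 over all 12171 genes tested. For 9 members, all but *Hk2*, every injured library lay above both steady-state libraries, against 22.2% of all genes. *Ldha* stood at 429 and 424 CPM at steady state and at 1358, 871, 1298 and 689 CPM after injury, *Gapdh* at 782 and 745 and at 1988, 1714, 2686 and 1445 CPM, and *Pfkl* at 5.96 and 3.82 and at 39.0, 22.0, 22.0 and 10.7 CPM. No member passed edgeR's test, where 12.6% of all genes did in either direction, although 7 had an unadjusted p under 0.05 (30.5% of all genes) and DESeq2 called 6 higher (5.51% of all genes). Without Tom+ injured replicate 4 edgeR called 3 members (5.88% of all genes higher), and 4 without Tom-GFP+ injured replicate 1 (6.92%) or replicate 2 (6.65%). The nearest were *Pfkl* with a difference of 2.29 (0.68; adjusted p of 0.0566), *Gapdh* with 1.35 (0.41; 0.0603) and *Ldha* with 1.29 (0.40; 0.0617).

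In the lining gate *Eno1* and *Ldha* rose after injury. *Eno1* stood at 273 and 308 CPM in the Tom+ steady-state libraries and at 709.9, 492, 656 and 533 CPM in the injured ones, a 2.14-fold difference of 1.10 (0.19) with an adjusted p of 0.0126. *Ldha* stood at 453 and 649.7 CPM and at 1228, 1034, 1298 and 1023 CPM, a 2.17-fold difference of 1.12 (0.19) with an adjusted p of 0.0136. Of all 9460 genes tested 1.17% were called higher. *Gapdh* went from 1195 and 1388 CPM to 1598, 1795, 2642 and 2203 CPM without passing (0.74 (0.21), adjusted p of 0.0815), and *Pgk1* from 89.8 and 162 CPM to 203, 167, 202 and 186 CPM (0.64 (0.22), 0.125). The median over members was 0.79. *Eno1*, *Ldha*, *Gapdh*, *Pgk1* and *Tpi1* had groups that did not overlap, against 16.4% of all genes. Without Tom+ steady-state replicate 1 neither call was made (0.0452% of all genes were called higher), and without replicate 2 *Ldha* alone was called (0.154%).

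Whether the injury difference itself was smaller in the lining than in the Thy1+ fibroblast gate was tested in the 6 Tom+ libraries with both gates, with the library as a block. No member passed, against 1.43% of all genes, 2 had an unadjusted p under 0.05 (13.3% of all genes) and DESeq2 called 0 (1.85% of all genes). *Pkm* (-0.63 (0.21), adjusted p of 0.209) and *Gapdh* (-0.55 (0.22), 0.299) had the lowest p, both with the smaller difference in the lining. For *Ldha* the 95% interval of this difference ran from -0.56 to 0.42 and for *Eno1* from -0.61 to 0.42.

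Set against Thy1+ fibroblasts of the same library, lining cells held less *Hk2* and less *Eno1*. *Hk2* was lower in the lining in 8 of 8 libraries, for example at 53.6 against 99.7 CPM in Tom+ injured replicate 2 and at 7.56 against 29.1 CPM in replicate 4, and differed by -1.21 (0.22), adjusted p of 0.00068. *Eno1* was lower in 6 of 8 libraries, with a ratio between 0.419 and 1.26, and differed by -0.53 (0.14), adjusted p of 0.0104. Of all genes 20% were called lower in this comparison, against 2 of 10 members. *Pgk1* was lower in 5 of 8 libraries (-0.51 (0.21), adjusted p of 0.0740) and *Aldoa* higher in 7 of 8 (0.31 (0.12), adjusted p of 0.0633). The differences of *Ldha*, *Gapdh*, *Tpi1* and *Pkm* lay between 0.03 and 0.08, but single libraries went in both directions. The ratio of lining to Thy1+ ran from 0.724 to 1.53 for *Ldha* and from 0.656 to 1.86 for *Gapdh*. It ran from 0.647 to 1.6 for *Tpi1* and from 0.559 to 1.86 for *Pkm*. Scaled by library size alone, which moved the median of all genes from -0.02 to 0.12, *Hk2* remained called lower, *Eno1* was no longer called and *Aldoa* was called higher.

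**Figure D3:**
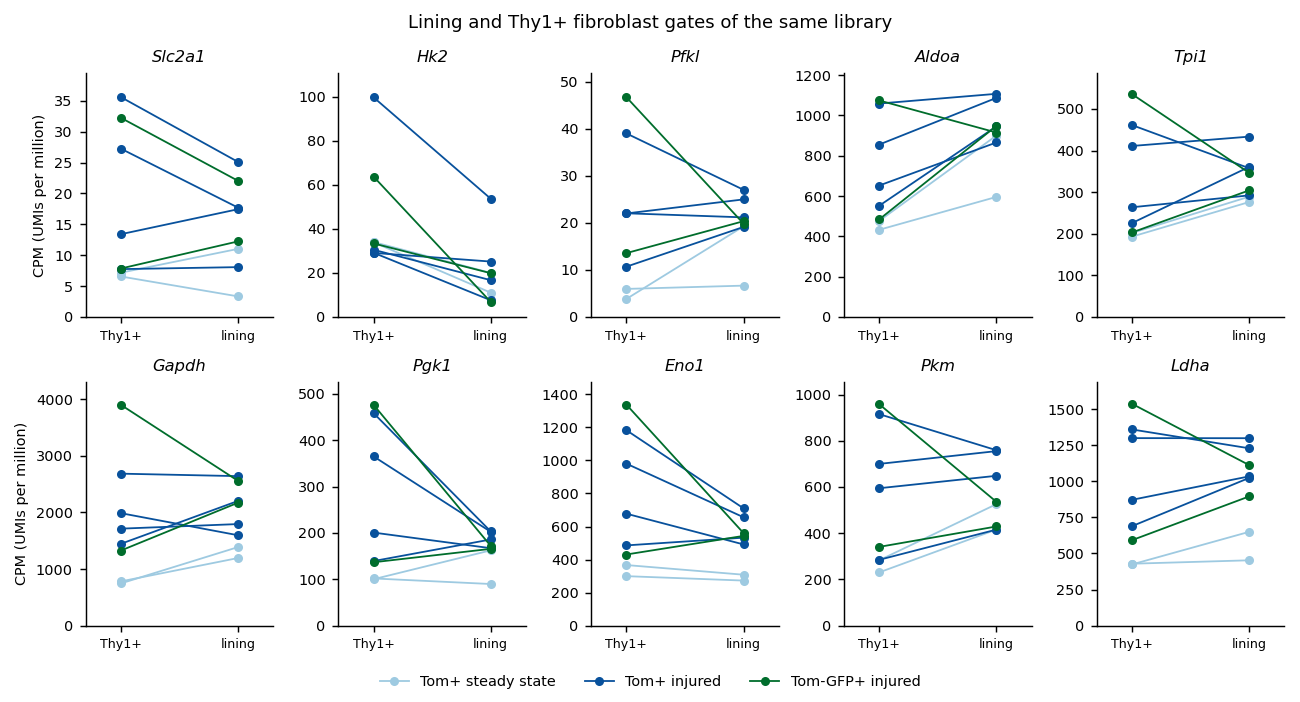
CPM of each glycolysis gene in the Thy1+ fibroblast gate and the lining gate of the same library, joined by a line for each of 8 libraries and coloured by group. All 8 lines fall for *Hk2* and 6 of 8 fall for *Eno1*, whereas for *Ldha*, *Gapdh* and *Pkm* both steady-state libraries run upwards and replicate 1 of each injured group downwards.

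In the osteoblast and tenocyte gates *Hk2* was again the member farthest from its level in Thy1+ fibroblasts, which did not hold in the chondrocyte gate. In the osteoblast gate, which rested on bone-forming cell markers such as *Ibsp* and *Sp7*, *Hk2* stood at 5.88, 16.5 and 46.4 CPM in Tom+ steady-state replicates 1 and 2 and Tom+ injured replicate 2, against 34.0, 33.9 and 99.7 CPM in the Thy1+ fibroblasts of those libraries. The difference was -1.28 (0.33), adjusted p of 0.0368, where 5.10% of all genes were called lower. The call was lost when any of the 3 libraries was left out. The osteoblast sums held 170048, 363289 and 280166 UMIs, so few UMIs stand behind each *Hk2* level. *Pfkl* lay nearly as far the other way (1.23 (0.49), adjusted p of 0.179) and was higher in 3 of 3 libraries. In the tenocyte gate (*Tnmd*, *Scx* and other tendon markers) *Hk2* was lower in 4 of 4 libraries without passing (-0.75 (0.22), adjusted p of 0.103), and no member passed against 3.26% of all genes (1 at an unadjusted p under 0.05 against 12.5%, 0 by DESeq2 against 2.79%). In the chondrocyte gate (*Col2a1*, *Acan* and other cartilage markers), compared in 3 injured libraries of 11 to 17 cells each, no member passed against 13.5% of all genes (0 at an unadjusted p under 0.05 against 25.3%, 0 by DESeq2 against 8.79%). There *Ldha* stood at 1854, 1312 and 1005 CPM and *Gapdh* at 2935, 2314 and 1886 CPM.

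Cycling cells carried more of most glycolysis transcripts than other stromal cells of the same library. The comparison used the 4 injured libraries with at least 20 cycling cells, called from *Mki67*, *Top2a*, *Ccna2*, *Ccnb1*, *Ccnb2*, *Cdk1* and *Birc5*. Of the members 8 were called higher, against 13.9% of all 11431 genes tested, and 1 lower, against 14.2%. *Pgk1* stood at 581, 351, 679 and 650.1 CPM in cycling cells of Tom+ injured replicates 1 to 3 and Tom-GFP+ injured replicate 1, and at 380.5, 201, 250.4 and 375 CPM in the other cells, a 1.87-fold difference of 0.90 (0.11) with an adjusted p of 0.0002. *Eno1* stood at 1454, 941, 1704 and 1994 CPM against 1018, 609, 727 and 1035 CPM (0.83 (0.11), 0.0002). Both were higher in cycling cells in 4 of 4 libraries.

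*Gapdh* stood at 2428, 2553, 4560.4 and 5261 CPM in cycling cells and 1767, 1729, 2469 and 3121 CPM in the others (0.66 (0.08), 9.7e-05), and *Ldha* at 1595, 1287, 1764 and 2098 CPM and 1242, 921, 1208 and 1241 CPM (0.54 (0.09), 0.0009). *Pkm* (0.63 (0.10), 0.0010), *Tpi1* (0.61 (0.09), 0.0005), *Slc2a1* (0.39 (0.13), 0.0437) and *Pfkl* (0.37 (0.12), 0.0451) were likewise higher in 4 of 4 libraries. *Aldoa* differed by 0.06 (0.12), adjusted p of 0.748, higher in 2 libraries and lower in 2. *Hk2* went the other way and was lower in cycling cells in 4 of 4 libraries, at 25.3, 43.3, 11.5 and 21.3 CPM against 27.0, 92.7, 28.9 and 34.1 CPM (-0.63 (0.18), adjusted p of 0.0264). Over these 4 libraries left out in turn, 6 to 7 members were called higher, and *Tpi1*, *Gapdh*, *Pgk1*, *Eno1*, *Pkm* and *Ldha* were called each time. DESeq2 called these 6 higher, against 11.9% of all genes, and none lower. The call of *Hk2* was lost by DESeq2 (adjusted p of 0.0517) and without Tom+ injured replicate 2 (0.207), replicate 3 (0.0631) or Tom-GFP+ injured replicate 1 (0.0568). Those of *Slc2a1* and *Pfkl* were lost without Tom+ injured replicate 1 or 2 or Tom-GFP+ injured replicate 1, and that of *Pfkl* also without Tom+ injured replicate 3. Cycling cells were also deeper, with a median of 22721.5 UMIs against 13706 in the other stromal cells of the 6 injured libraries, and the part of depth in these differences was not tested.

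**Figure D4:**
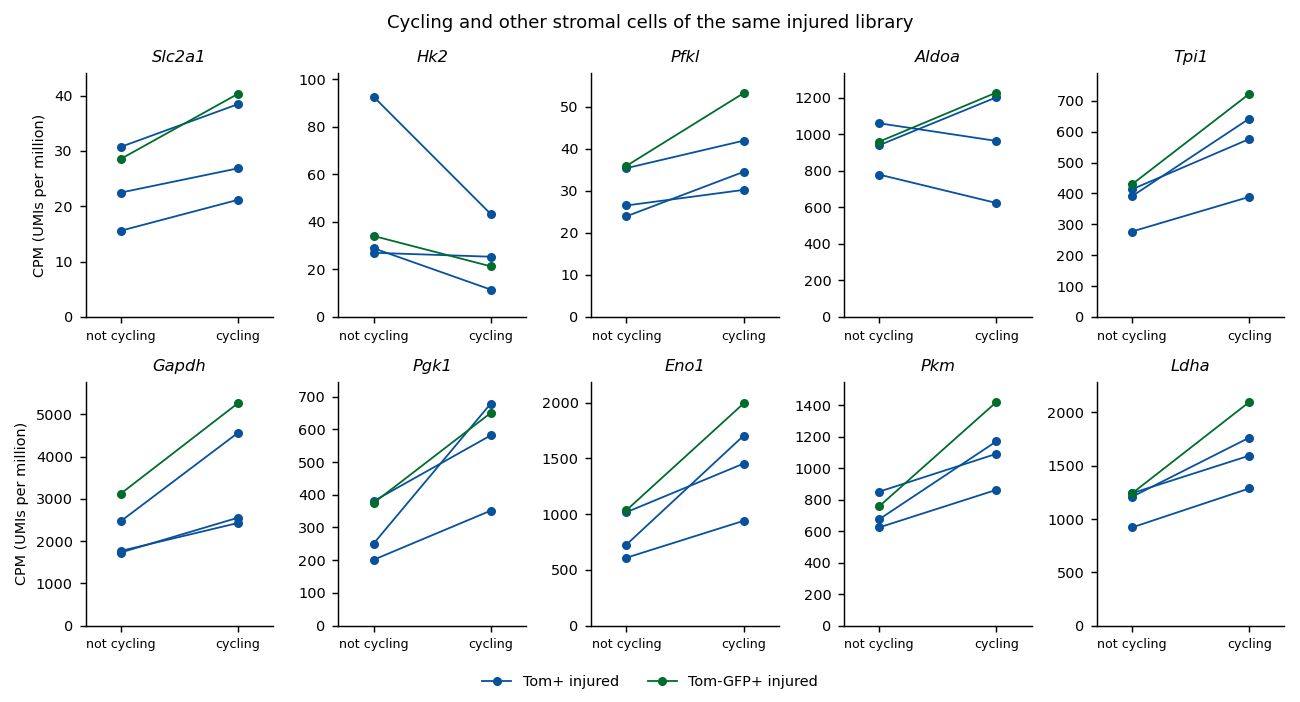
CPM of each glycolysis gene in non-cycling and cycling stromal cells of the same injured library, joined by a line for each of 4 libraries. All 4 lines rise for 8 genes, all 4 fall for *Hk2*, and *Aldoa* rises in 2 and falls in 2.

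Injury-induced cells, called from *Lrrc15*, *Adam12*, *Tnc* and *Mdk*, made up 11.9% to 42.7% of stromal cells in injured libraries and 0.491% to 0.917% at steady state. Against the other stromal cells of the 6 injured libraries, 6 members were higher (12.2% of all genes were). *Pgk1* differed by 0.62 (0.14; adjusted p of 0.0079) and was higher in 6 of 6 libraries. *Slc2a1* (0.55 (0.13), 0.0112) was higher in 4 of 6 libraries and *Eno1* (0.47 (0.13), 0.0241) in 5 of 6. *Pkm* (0.32 (0.10), 0.0472) and *Gapdh* (0.31 (0.10), 0.0441) were each higher in 5 of 6, and *Tpi1* (0.29 (0.09), 0.0415) in 4 of 6. *Ldha* did not pass (0.23 (0.09), 0.0817), and *Hk2* differed by 0.03 (0.10; 0.876). Cycling cells were 15.6% of injury-induced cells and 5.41% of the others, and the same 6 members were called with cycling cells left out of both sides (11.6% of all genes higher). The count was 1 without Tom+ injured replicate 1 (8.99%), and 2 without Tom+ injured replicate 3 (9.76%) or Tom-GFP+ injured replicate 1 (10.0%). *Pgk1* was called each time. Median depth was 19027.5 UMIs in injury-induced cells and 12840 in the others.

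Among other genes of the pathway, 21 of 30 listed were tested in Tom+ stromal cells, and 3 rose after injury and none fell, with a median of -0.04. Of all 14920 genes tested 949 rose and 1040 fell. *Slc16a3*, which encodes the lactate exporter MCT4, stood at 7.06 and 9.93 CPM at steady state and at 92.9, 52.5, 72.1 and 30.9 CPM after injury, 2.91 (0.74) with an adjusted p of 0.0377. *Pfkfb3*, which makes the fructose-2,6-bisphosphate that activates phosphofructokinase, stood at 4.59 and 7.18 CPM and at 14.5, 12.7, 10.9 and 15.3 CPM (1.21 (0.25), 0.0217). *Slc16a1*, the gene of the monocarboxylate transporter MCT1, rose by 0.82 (0.16; 0.0186). For all 3 the injured and steady-state Tom+ libraries did not overlap. *Pgam1*, the gene of the phosphoglycerate mutase between *Pgk1* and *Eno1*, differed by 1.31 (0.38) with an adjusted p of 0.0551. In the Thy1+ fibroblast gate *Slc16a3* (5.01 (1.16), 0.0268) and *Pfkfb3* (3.23 (0.43), 0.0037) rose as well. *Slc16a3* was also higher in cycling (0.70 (0.17), 0.0125) and in injury-induced cells (0.64 (0.13), 0.0040).

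Genes at the exits of the pathway moved in both directions in Tom+ stromal cells, where 949 of all 14920 genes tested rose and 1040 fell. Of 13 genes of pyruvate entry to mitochondria, *Pdk3*, a kinase that inhibits pyruvate dehydrogenase, rose (1.14 (0.16), adjusted p of 0.0088), whereas *Pdp1*, the phosphatase that reactivates it (-1.63 (0.28), 0.0149), and *Pdk2*, another of its kinases (-0.79 (0.15), 0.0193), fell. Of 7 pentose phosphate pathway genes *Pgls* rose (0.91 (0.16), 0.0150), and of 16 citric acid cycle genes *Fh1* (0.56), *Mdh2* (0.81) and *Idh3a* (0.71) rose. None of 3 gluconeogenesis genes tested passed. Of 96 oxidative phosphorylation genes tested 16 rose and 4 fell, with a median of 0.25. The 4 that fell, named after their values were seen, were *Ndufs6b*, *Cox6c2*, *Ndufb4c* and *Uqcrh-ps1*, whose names mark them as copies of other subunit genes.

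Of 22 hypoxia response genes 3 rose in Tom+ cells and 2 fell, with a median of 0.34. Among all 14920 genes tested 949 rose and 1040 fell, with a median of 0.05. *Higd1a*, a mitochondrial protein gene induced by hypoxia, stood at 136 and 157 CPM at steady state and at 529, 389, 575 and 445 CPM after injury (1.79 (0.20), adjusted p of 0.0034). *Ddit4*, an inhibitor of mTORC1 signalling, rose by 2.01 (0.55; 0.0459) and *Hif1a*, the oxygen-sensitive subunit of hypoxia-inducible factor 1, by 1.34 (0.23; 0.0150). *Adm*, the adrenomedullin gene, fell by 2.32 and *Ndrg1* by 0.99. *Vegfa* (0.91 (0.62), 0.341) did not pass, and *Myc*, which stood at 66.0 and 69.7 CPM and at 41.7, 90.7, 91.4 and 71.7 CPM, differed by 0.18 (0.29; 0.704). Against Thy1+ fibroblasts of the same library the lining held 10 of 19 hypoxia response genes lower and 3 higher, with *Hif1a* at -1.77 (0.17; 1.8e-06) and *Higd1a* at 1.61 (0.16; 1.8e-06). Of all 9531 genes tested there, 1908 were lower and 1705 higher. In both comparisons the hypoxia response genes that passed went in both directions. In the lining more of them were lower than higher, with a median of -0.395 over the list against -0.0172 over all genes tested. The part of hypoxia in these differences was not tested. *Myc* was lower in the lining (-1.12 (0.22), 0.0011).

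Since *Gapdh* is often used as a reference, other genes used in that way were read in the same fit. *Gusb* rose in Tom+ cells after injury (0.72 (0.16), adjusted p of 0.0268). *Ppia* differed by 0.70 (0.23; adjusted p of 0.0799) and *Actb* by 0.57 (0.17; 0.0563). *Gapdh*, at 1.29, lay above these 3, and its difference from them was not tested.

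Several members have near-identical copies in the genome, which can take or share their reads. At 95% identity or more over at least 150 bases, *Gapdh* had 95 copies, *Ldha* 5, *Eno1* and *Pgk1* 4, *Pkm* 2, *Tpi1* and *Aldoa* 1, and *Slc2a1*, *Hk2* and *Pfkl* none. For *Gapdh* the copies took 17.8%, 14.2% and 18.2% of the UMIs of gene and copies in the 3 steady-state libraries and 6.94% to 12.7% in the injured ones. For *Eno1* they took 19.3%, 17.4% and 22.0% at steady state, 7.38% in Tom+ injured replicate 1, which shares their older format, and 1.94% to 3.61% in the 5 libraries of the newer format. Shares for *Ldha* ran from 0.0956% to 5.14% and for *Pkm* from 0.296% to 4.27%. *Eno1b*, the copy of *Eno1* with a symbol of its own, stood at 65.0 to 78.4 CPM in the 4 older-format libraries and at 9.03 to 16.1 CPM in the 5 newer ones. With all copies added, the injury difference of *Eno1* in Tom+ cells moved from 1.28 to 1.05 (adjusted p of 0.121).

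**Figure D5:**
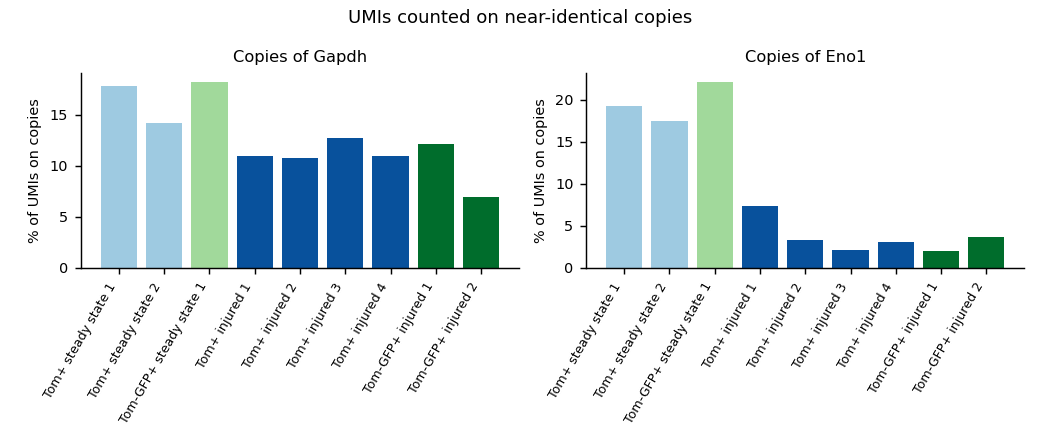
Share of UMIs that the count tables place on near-identical copies of *Gapdh* and of *Eno1*, in % of the UMIs of gene and copies (y axis), for each of the 9 libraries (bars, coloured by group). The 3 steady-state bars are the highest in both panels, and for *Eno1* Tom+ injured replicate 1 lies between them and the other injured libraries.

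The genes whose levels followed the mean log2 CPM of the members most closely, across 36 sums of 7 gates in 9 libraries, were *Eif5a*, a translation factor gene (Pearson r of 0.916), *Mif*, a cytokine gene (0.903), *Fam162a* (0.896), *Tmem167* (0.892) and *Lrrc59* (0.891). The sums share libraries and differ in depth, and these values describe likeness only.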

How the data were processed

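Per the file headers and the submitters' processing notes, the authors made UMI counts per gene and cell from 10x Genomics 5′ libraries with Cell Ranger (3.0.2 in the newer headers) against GRCm38.p6, and deposited them as filtered matrices of 9 libraries. Samples were grouped by the sorted population and state in the labels. The counts were not changed before use, and no doublet caller was run; 76 cells past more than 1 gate were left out of the gates and, as an alternative, of the stromal sums.

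A cell was used if it had 500 or more genes, 1000 or more UMIs and a mitochondrial share of 10% or less. Gates took cells with a minimum number of markers and of summed marker UMIs per 10000, cuts set after the data were seen. UMIs were summed per library and gate where at least 20 cells were present (10 where fewer than 3 libraries would be left). The sums were tested in edgeR 4.0.16 (R 4.3.3) with TMM scaling, its default filter on low counts, the quasi-likelihood test and Benjamini-Hochberg adjustment at 0.05; DESeq2 1.42.0 was an alternative. Lineage and injury comparisons used all groups with a sum in 1 fit, and comparisons between cells of the same library had the library as a block. SE is the log2 difference divided by the root of F. Levels are CPM of the summed UMIs, and no interval is given for single levels; replicate spread holds counting error. Simulated counts with the same spread for every gene were made only for injury in Tom+ stromal cells and for cycling against other cells. There edgeR gave most known changes the right direction, and the other comparisons were not simulated.

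Named genes are the 10 members, listed pathway genes past the test in Tom+ stromal cells, a few others with values, and the 5 genes most like the members. The members, lists and comparisons were chosen with earlier results of these data known. Library pairs of a group differed by more than sampling noise. Same-numbered libraries correlated between -0.131 and 0.255 in their deviations. Among injured libraries, Tom+ and Tom-GFP+ replicate 1 correlated at 0.255 and replicate 2 at 0.0706. Differently numbered libraries were not compared, so this cannot show whether the numbers pair libraries. The main lineage comparisons used no pairing. Alternatives were other scaling and filters, copies added, libraries left out, blocks and stricter gates. The comparison of injury-induced cells, that of the injury difference between gates, and the fits within 1 format were added after the data were seen. One gene of the list of reference genes, and that list's counts, are not reported here.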

Additional observations from a re-analysis of the deposited data

Results flagged for a closer look

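*Hk2* in Tom+ injured replicate 2 stood apart from the other 3 Tom+ injured libraries, at 88.2 CPM in stromal cells against 26.6 to 27.7 CPM, and at 99.7 CPM in the Thy1+ fibroblast gate against 29.1 to 30.5 CPM. Its gap to the nearest library was 0.983 and 0.980 of the group's range, above Dixon's critical value for 4 libraries. The 2 values share cells. In all 30 such groups were examined, and chance picks about 1 in 20. *Hk2* in the same library also stood at 53.6 CPM in the lining gate and 120.0 CPM in the cells of no gate. The cause was not tested.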

How the results depend on the processing

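Over all 10 members, 14 comparisons and their alternatives, 2407 differences were computed: 2090 kept direction and side of the threshold, 100 passed it newly, 67 no longer passed and 150 reversed, of which 41 in Tom+ against Tom-GFP+ after injury, 26 in tenocytes and 23 in chondrocytes; causes were not tested. Members called after injury in Tom+ cells (2) came to 7 by DESeq2, 7 without the low-count filter, 1 with copies added, 4 with format as a block and 4 without cycling cells. With the replicate number as a block, which was not shown to pair the libraries, none was called in Tom+ cells (0) and 2 in their Thy1+ gate. In Tom-GFP+ cells (0) the count was 2 by DESeq2, 4 without the filter and 1 in that lineage alone. In the Thy1+ gate (0) it was 6 by DESeq2, 9 without the filter, 1 with stricter cells and 2 with the format block. In the lining gate (2) it was 4 without the filter and 1 with the format block. Lining against Thy1+ (2) gave 4 without the filter and 5 with the cut doubled. Osteoblasts (1) gave 0 by DESeq2, 0 by library size and 2 without the filter, tenocytes (0) 1 without the filter and 1 with the cut doubled, and injury-induced cells (6) 3 by library size and 2 with the cut doubled. Cycling cells (8 higher, 1 lower) gave 6 and 0 by DESeq2, and 6 and 1 without the filter or with the cut doubled.

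Leaving out 1 library gave 0 to 6 calls in Tom+ cells, 0 to 4 in the Thy1+ gate, 0 to 3 in the lining gate, 2 to 3 for lining against Thy1+, 6 to 7 for cycling cells, 0 to 0 for osteoblasts and 1 to 7 for injury-induced cells. The *Hk2* difference after injury in Tom+ cells reversed to -0.0044 without Tom+ injured replicate 2, -0.032 with the format block and -0.051 in the older format, and in the Thy1+ gate to -0.22, -0.28 and -0.23. *Aldoa* in cycling cells reversed to -0.015 without the filter and -0.062 without Tom-GFP+ injured replicate 1, and *Hk2* in injury-induced cells to -0.021 by library size, -0.0039 without the filter and -0.085 without Tom+ injured replicate 1. With single libraries left out, these *Hk2* differences ran up to 0.81 in Tom+ cells, 0.67 in the Thy1+ gate and 0.089 in injury-induced cells, and *Aldoa* in cycling cells up to 0.19. In Tom+ against Tom-GFP+ after injury, *Aldoa* reversed to -0.022 with the format block and -0.0070 in the newer format and ran from -0.25 to 0.50 with single libraries left out. *Ldha* there reversed to -0.077 and -0.062 and ran from -0.38 to 0.60, and *Gapdh* from -0.83 to 0.33. For lining against Thy1+ the ranges were -0.051 to 0.14 for *Tpi1*, -0.030 to 0.20 for *Pkm* and -0.030 to 0.12 for *Ldha*. For the injury difference between these gates they were -0.27 to 0.0099 for *Eno1* and -0.31 to 0.21 for *Ldha*.

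Over the alternatives the adjusted p of *Gapdh* in Tom+ cells ran from 0.00258 to 0.202 and that of *Ldha* from 0.000954 to 0.177. By library size alone, lining against Thy1+ called 2637 genes higher and 1408 lower (1705 and 1908 as reported). Depth limits *Slc2a1*, *Hk2* and *Pfkl* in small gates, where few UMIs stand behind a value.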
